A study of Sus scrofa with 12 samples.

Results

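The central thyroid axis genes described here are TRH, TRHR, TSHR, DIO2, DIO3, THRA, THRB and CRYM, taken by symbol from the mRNA data of the hypothalamus of germ-free (GF) pigs and of pigs colonized with gut microbes (CG). They are 8 of 19256 genes in the mRNA data. The level of a gene is the sum of the TPM (a unit of transcript abundance scaled for transcript length and for the library total) of all its transcripts. The comparison asks how the expression of these genes differs between pigs raised without and with a gut microbiota.

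GF and CG pigs were Bama piglets delivered by hysterectomy from 1 sow and free of microbes at birth, and both groups are labelled as male and 45 days old at sampling, where the methods of the study give a slightly younger age. CG pigs received a fecal microbiota transplant from day 3 to day 7 of life, and GF pigs received none. Each group has 3 long RNA libraries, 1 per pig, made from a part of each hypothalamus. The piglets are litter mates, so p values measure the spread between piglets of 1 litter. Which piglets shared an isolator is not given in the sources used here, so an isolator and the colonization cannot be told apart.

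Thyrotropin-releasing hormone (TRH) is made in the paraventricular nucleus of the hypothalamus and drives the release of thyroid-stimulating hormone (TSH) from the pituitary, which in turn drives the thyroid gland. In the brain, the prohormone T4 is turned into the active hormone T3 by the deiodinase DIO2, largely in astrocytes and in tanycytes, the glial cells that line the floor of the third ventricle, and T4 and T3 are inactivated by DIO3. T3 acts on gene expression through nuclear receptors, and it feeds back on TRH neurons.

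Some libraries stood apart before any comparison of these genes. The summed level of 14 regional transcription factors of the hypothalamus was 64.2 to 94.2 TPM in the GF pigs, against 220 to 279 TPM in the CG pigs, and 7 of the 14 fell in GF pigs, where 4.93% of all tested genes did. That count was 2 without GF pig 1, CG pig 1 or CG pig 2, 1 without GF pig 3, 4 without CG pig 3 and 9 without GF pig 2, and BSX, NR5A1 and SIX6 among them were tested only through their level in CG pigs. The summed level of 12 thalamus markers was 1270 TPM in GF pig 1, 1186 TPM in GF pig 3, 225 TPM in GF pig 2 and 251 to 306 TPM in CG pigs, and 0 of the 12 passed the test, with 5 higher in GF pigs at an unadjusted p under 0.05 (limma). SHOX2, 1 of these 5, was tested only through its level in GF pigs. The number of thalamus markers that rose was 8 without GF pig 2, 6 with array weights and 0 without any other single library. The summed level of 11 markers of pituitary thyrotrophs and of the pars tuberalis was 29.5 to 33.2 TPM in the GF pigs, against 240, 42.7 and 4392 TPM in CG pigs 1 to 3. CGA, the subunit that TSH shares with other pituitary hormones, was at 193, 5.43 and 3579 TPM in CG pigs 1 to 3. Among the 11 markers TSHB, the specific subunit of TSH, was at 604 TPM in CG pig 3, at 0.77 TPM or less in the other libraries, and listed at 0 in GF pigs 1 and 3 and in CG pig 2. A list of other anterior pituitary markers added up to 12.8 to 17.2 TPM in the GF pigs, against 114, 67.2 and 1343 TPM in CG pigs 1 to 3. Of 7 tested markers of blood and vessels HBB, a hemoglobin subunit, rose, where 1.08% of all tested genes did. HBB was at 420 to 1172 TPM in the GF pigs, against 3.03 to 10 TPM in the CG pigs. The other listed markers added up to 123 to 167 TPM and 148 to 178 TPM, and TAGLN and CLDN5 were lower at an unadjusted p under 0.05. All pigs are labelled as male, but KDM5D, a gene of the Y chromosome, was at 3.46 and 3.45 TPM in CG pigs 1 and 2, at 0.04 TPM in CG pig 3 and at 0.01 TPM or less in the GF pigs. The part of these differences in the results below was not tested, and the values without GF pig 1 or CG pig 3 stand beside the results that rest on them. In RNA from a piece of tissue, fewer cells of a type and less RNA per cell cannot be told apart.

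TSHR, the receptor of TSH, was the member with a lower level in GF pigs that passed the test, and TRH, TRHR, DIO3, THRA and CRYM were lower in every GF library than in every CG library without passing it. DIO2 and THRB overlapped between the groups. Of the 8 genes, 1 fell and 0 rose at an adjusted p under 0.05 (limma, Benjamini-Hochberg over 14641 tested genes), where 4.93% of all tested genes fell and 1.08% rose. At an unadjusted p under 0.05, 5 were lower and 0 higher. Counts at an unadjusted p, here and for the lists, have no share of all tested genes beside them, so they are description only. Calling also asked for a log2 fold change of 1 or more in size, and 1 of 8 was called lower, against 2.42% of all tested genes. Every GF library was below every CG library for 6 of the 8, against 32.8% of all tested genes. The median log2 fold change (GF minus CG, on the log2(TPM + 1) scale, as are all fold changes here) was -1.05 over the 8 genes and -0.23 over all tested genes, and 7 of the 8 lay below the latter. With each library centred on its median, the log2 fold changes were -1.71 for TSHR (adjusted p = 0.0208), -1.55 for TRH, -0.68 for TRHR, -0.94 for DIO3 and -1.90 for CRYM, and 5 of the 8 did not overlap between the groups. The share of all tested genes is given for uncentred libraries only, so the centred count cannot be set against it. GF pig 1 had the lowest level of the 6 libraries for 5 of the 8 genes, and CG pig 3 had the highest for 6 of them.

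**Figure D1:**
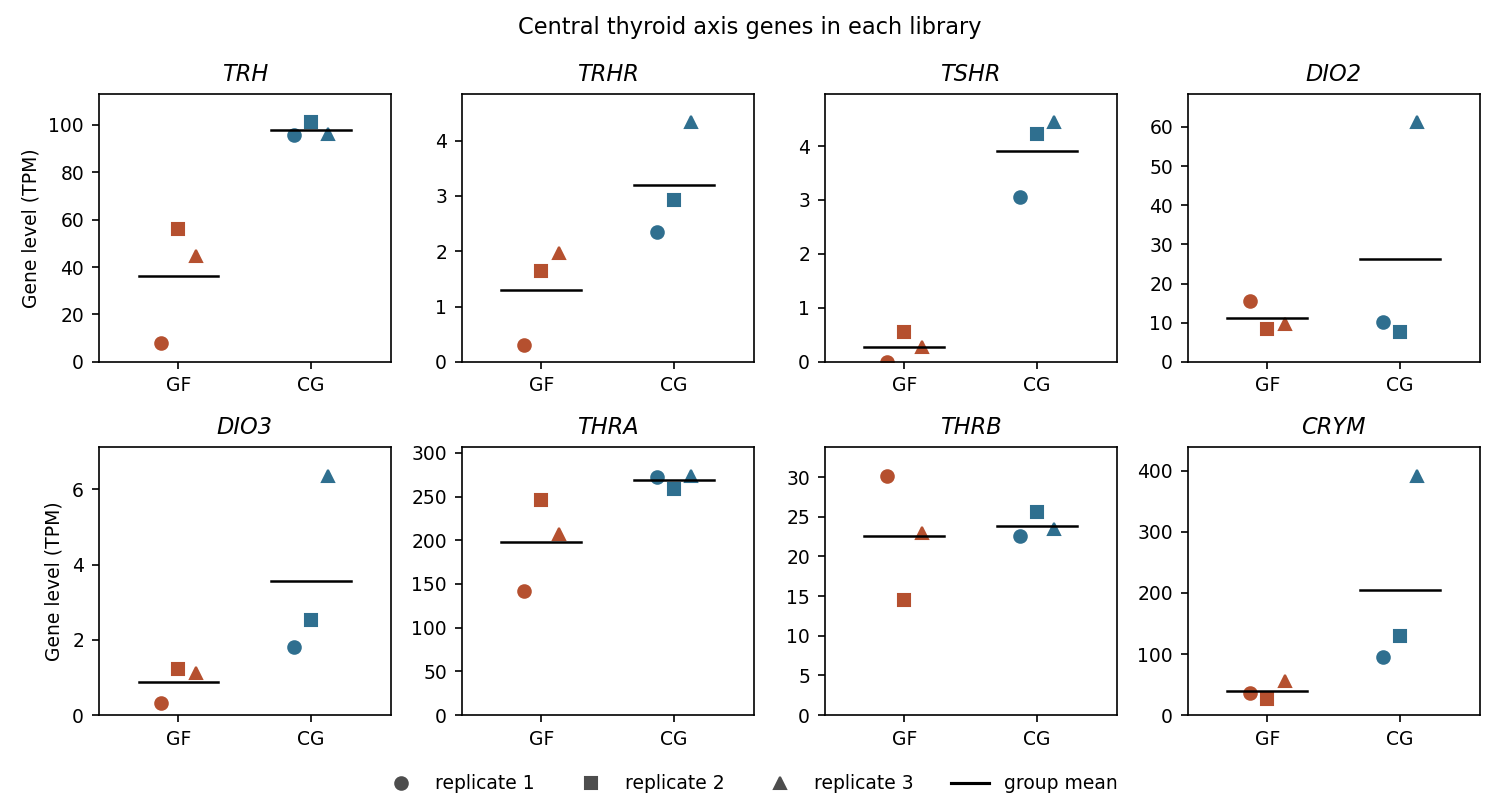
TPM of each gene on a linear axis from 0, with 1 point per library (circle, square and triangle for replicates 1, 2 and 3) and a line at the group mean. TRH, TRHR, TSHR, DIO3, THRA and CRYM do not overlap between GF and CG pigs, and replicate 3 of CG stands above the other libraries for DIO2 (61.2 TPM) and CRYM (392 TPM).

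TRH (ENSSSCG00000011596, chr13:69362892-69366183 in Sscrofa11.1) encodes the precursor of the releasing hormone. Its level was 7.91, 56 and 44.8 TPM in GF pigs 1 to 3, against 95.8, 101 and 96.2 TPM in CG pigs 1 to 3. The CG libraries lay close together, the GF libraries did not, and all 3 of them were lower. The means were 36.2 ± 25.2 TPM (SD, n = 3) in GF pigs and 97.7 ± 3.01 TPM (SD, n = 3) in CG pigs. The log2 fold change of TRH was -1.79 (SE 0.63), which did not pass the test (limma, adjusted p = 0.111). Without GF pig 1 it was -0.95 (adjusted p = 0.0591).

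TRHR (ENSSSCG00000040768, chr4:28480637-28482031) is the receptor through which TRH acts, on pituitary cells and on neurons. It was at 0.31, 1.65 and 1.96 TPM in the GF pigs, against 2.35, 2.93 and 4.33 TPM in the CG pigs. The groups did not overlap, but GF pig 3 and CG pig 1 were close. Between the groups the log2 fold change of TRHR was -0.92 (SE 0.35) and did not pass the test (limma, adjusted p = 0.128). Without GF pig 1 it was -0.56 (adjusted p = 0.248).

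TSHR (ENSSSCG00000031771, chr7:103768260-103925777) is the receptor of TSH, best known from the thyroid gland and also present in the brain. TSHR was listed at 0, 0.55 and 0.27 TPM in GF pigs 1 to 3, against 3.05, 4.23 and 4.44 TPM in CG pigs 1 to 3. All CG libraries were above all GF libraries, and no GF library reached 1 TPM, so TSHR entered the test only through its level in CG pigs. The fold change was -1.96 on the log2 scale (SE 0.24), and TSHR fell in GF pigs (limma, adjusted p = 0.0195). With a pseudocount of 0.1 in place of 1 it was -3.78 (adjusted p = 0.0393). Leaving out any of GF pigs 1 and 3 or CG pigs 1, 2 and 3 took the adjusted p of TSHR to 0.0531, 0.0672, 0.0655, 0.102 and 0.0541, and without GF pig 2 it was 0.0176. Without both GF pig 1 and CG pig 3 the log2 fold change of TSHR was -1.71 (adjusted p = 0.0751).

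TSHR was also measured by qPCR in the study, in values not analysed here. The study counts TSHR among its differentially expressed genes and states that qPCR of the genes it selected matched its sequencing. The primers are shown because TSHR is the 1 gene of the 8 that passed the test. Both are 20 bases long with a GC content of 55%.
TSHR forward: gcagctggaatcacagtcct
TSHR reverse: gttgcacaggccctgaaaag

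The deiodinase genes did not pass the test. DIO2 (ENSSSCG00000040638, chr7:103096414-103110749, 657510 bases away from TSHR) encodes the enzyme that makes T3. It was at 15.6, 8.36 and 9.81 TPM in the GF pigs, against 10.2, 7.67 and 61.2 TPM in the CG pigs. The groups overlapped, and CG pig 3 was above all other libraries. The log2 fold change of DIO2 was -0.62 (SE 0.70, limma, adjusted p = 0.582) with all libraries and 0.27 (adjusted p = 0.574) without CG pig 3, so its direction rested on that library. DIO3 (ENSSSCG00000036990, not placed on a chromosome in the table used), the inactivating enzyme, was at 0.32, 1.24 and 1.11 TPM in the GF pigs, against 1.8, 2.53 and 6.37 TPM in the CG pigs. Every GF library was lower, and CG pig 3 was again the highest. The log2 fold change of DIO3 was -1.18 (SE 0.40, limma, adjusted p = 0.0992), and it was -0.77 without CG pig 3 (adjusted p = 0.168).

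Tanycytes are a known site of DIO2, so their markers stand beside these values. Of 12 listed markers 10 were tested, of which CRABP1 fell and 0 rose, where 4.93% of all tested genes fell and 1.08% rose. The fall of CRABP1 did not pass with the replicate block or without any single library other than GF pig 2. At an unadjusted p under 0.05 there were 3 lower and 1 higher, the latter NES (log2 change 0.81). Their summed level was 212 to 415 TPM in the GF pigs, against 385 to 688 TPM in the CG pigs, with the highest value in CG pig 3. VIM was the largest part of it in every library, at 106, 106 and 209 TPM in GF pigs 1 to 3, against 206, 218 and 409 TPM in CG pigs 1 to 3. Astrocyte markers, of which 0 of 7 tested passed (1 lower at an unadjusted p under 0.05), added up to 2090 to 3104 TPM in the GF pigs, against 2747 to 3413 TPM in the CG pigs. RAX, a defining tanycyte factor, was listed at 0 in all 3 GF pigs, against 0.15, 1.24 and 2.51 TPM in CG pigs 1 to 3, and was too low to be tested. The tanycyte markers did not go 1 way. FRZB, COL25A1 and PPP1R1B had log2 fold changes of 0.72, 0.68 and 0.31 without passing, and 6 of the 10 tested lay below the median of all tested genes.

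Of the nuclear receptors, THRA was the more abundant in every library. THRA (ENSSSCG00000035969, chr12:22270506-22296684) encodes thyroid hormone receptor alpha, the main form in brain. THRA was at 142, 246 and 207 TPM in the GF pigs, against 272, 259 and 274 TPM in the CG pigs. The GF libraries were all lower, GF pig 1 by the most. The log2 fold change of THRA was -0.47 (SE 0.20, limma, adjusted p = 0.168), and with each library centred on its median it was -0.23 (adjusted p = 0.518), where the groups overlapped. Without GF pig 1 it was -0.25 (adjusted p = 0.32). THRA shares 3626 bases with NR1D1, a clock gene on the opposite strand, and whether counting used strand is not given in the sources used here, so reads of that stretch may belong to either gene. NR1D1 was at 53.9, 29.9 and 33.6 TPM in the GF pigs, against 43, 30.3 and 29.7 TPM in the CG pigs, with a log2 fold change of 0.16 (limma, adjusted p = 0.705). THRB (ENSSSCG00000036033, chr13:10900716-11360587), thyroid hormone receptor beta, which takes part in the feedback on TRH neurons in mice, was at 30.2, 14.5 and 23 TPM in the GF pigs, against 22.6, 25.6 and 23.5 TPM in the CG pigs. GF pigs held both the highest and the lowest THRB level. For THRB the log2 fold change was -0.13 (SE 0.25, limma, adjusted p = 0.751), and it was 0.11 with centred libraries and 0.14 without GF pig 2.

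CRYM (ENSSSCG00000007849, chr3:24815010-24835837) encodes mu-crystallin, a protein that binds T3 in the cytosol. It was at 35.6, 26.4 and 55.9 TPM in the GF pigs, against 95.3, 129 and 392 TPM in the CG pigs. The groups did not overlap, and CG pig 3 was far above the other CG pigs. For CRYM the log2 fold change was -2.14 (SE 0.52) and missed the threshold (limma, adjusted p = 0.0544). It was -1.54 without CG pig 3 (adjusted p = 0.0745).

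**Figure D2:**
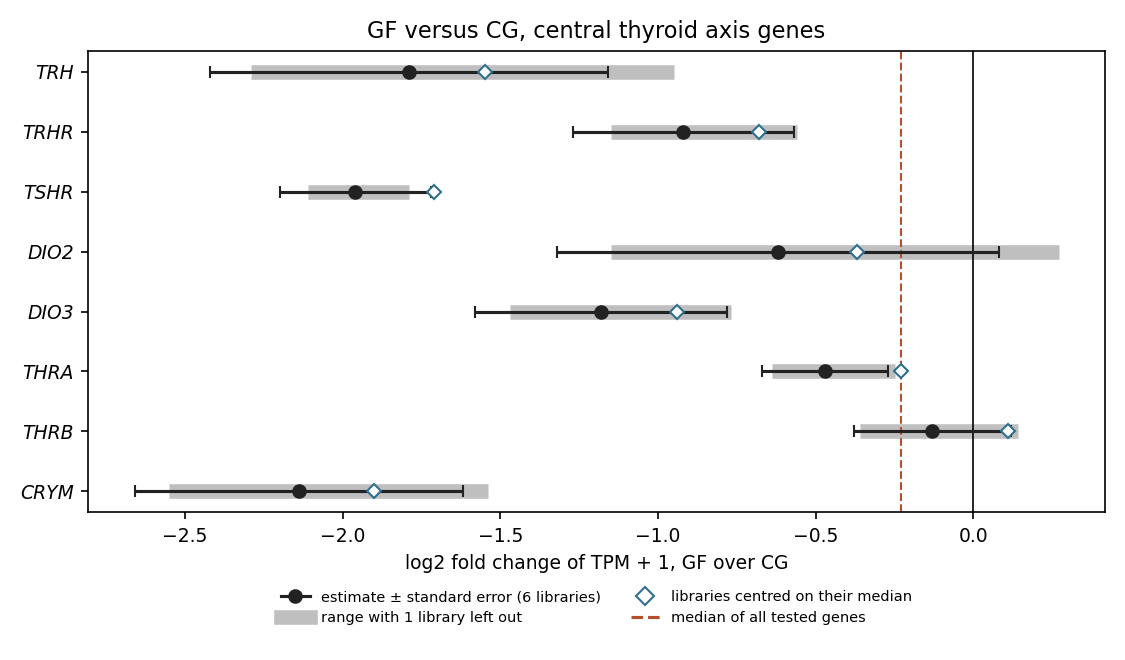
Log2 fold change of TPM + 1 (GF over CG) of each gene as a point with its standard error, with the range over fits that leave out 1 library in grey, the value with median-centred libraries as a diamond and the median of all tested genes (-0.23) as a dashed line. The grey ranges of DIO2 and THRB cross 0 and those of the other 6 genes do not.

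**Figure D3:**
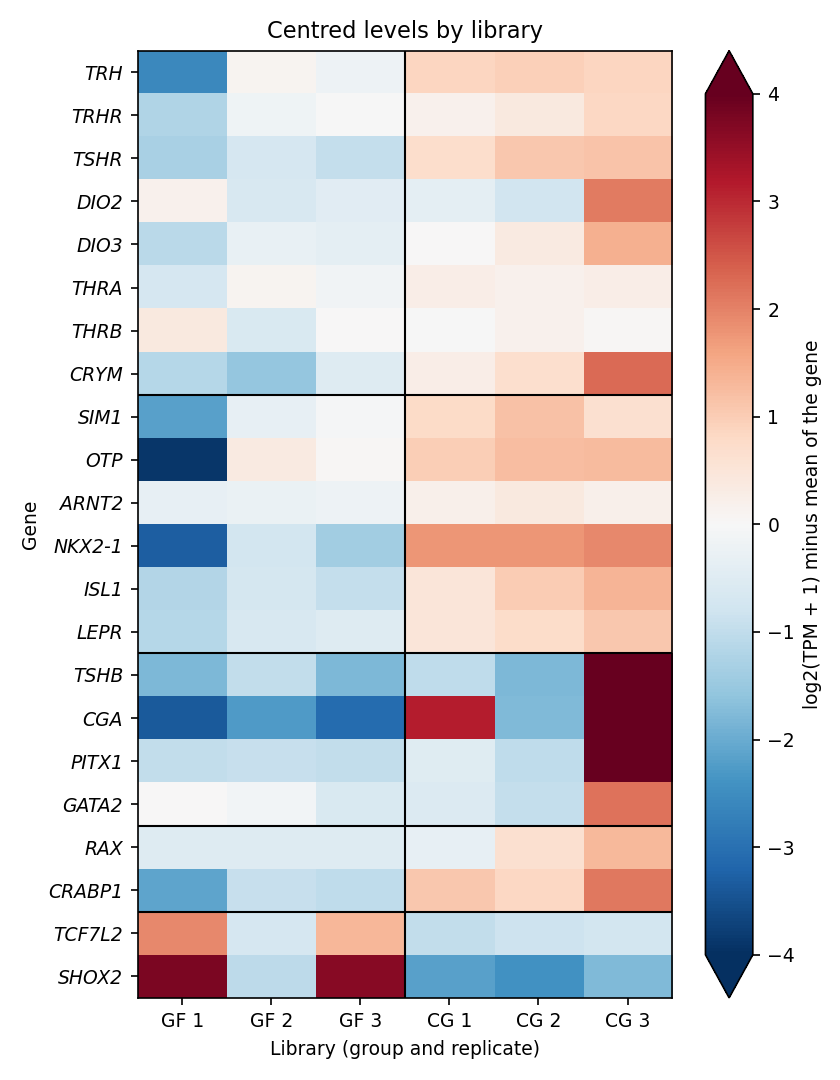
Log2(TPM + 1) minus the mean of the gene, by library, with colours ending at 4 in each direction. Blocks from the top hold the 8 genes, picked hypothalamic and TRH neuron genes, pituitary genes, tanycyte genes (RAX, CRABP1) and thalamus genes (TCF7L2, SHOX2). The genes below the first block were picked with their values known and do not stand for their lists. Hypothalamic, tanycyte and thalamus markers left out here include some that went the other way. GF pig 1 is lowest for TRH, SIM1, OTP and NKX2-1, CG pig 3 is highest for DIO2, DIO3, CRYM and the pituitary genes, and SHOX2 is high in GF pigs 1 and 3.

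The 8 genes have 24 annotated transcripts, of which 20 were above 0 in some library and 16 were tested. Of the 16, 2 were called lower in GF pigs, against 3.95% of all 27945 tested transcripts. Both were under 1 TPM in every GF library, so they entered the test only through their level in CG pigs, and their calls are no support of their own. One was the main TSHR transcript (ENSSSCT00000038969), with a log2 fold change of -2.01 (limma, adjusted p = 0.00939), and 4 of the 6 TSHR transcripts were at 0 in all libraries. The other was a minor CRYM transcript, ENSSSCT00000071244, at 0.38, 0.53 and 0.96 TPM in the GF pigs, against 4.29, 4.79 and 5.34 TPM in the CG pigs. Its log2 fold change was -1.85 (SE 0.24, limma, adjusted p = 0.011). Both calls held when any 1 library was left out, with adjusted p values up to 0.0428 for TSHR and up to 0.0422 for CRYM, but without GF pig 1 and CG pig 3 together they were 0.0816 and 0.0858. The main CRYM transcript, ENSSSCT00000008599, was at -2.12 on the log2 scale (adjusted p = 0.0577).

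Shares of a gene by transcript were compared for THRA and THRB. The main THRA transcript, ENSSSCT00000060832, made up 69.8 ± 2.48% (SD, n = 3) of THRA in GF pigs and 70.1 ± 2.33% (SD, n = 3) in CG pigs (two-sided exact permutation test, p = 0.9). The share of ENSSSCT00000075382 was 3.48 ± 0.58% (SD, n = 3) in GF pigs and 5.15 ± 0.09% (SD, n = 3) in CG pigs without overlap, where the exact test gave p = 0.1. With 3 pigs against 3 an exact permutation test cannot go below 0.1. No single transcript of THRB made up most of the gene, and ENSSSCT00000065266, the most abundant in GF pig 1, had a share of 31 ± 10.9% (SD, n = 3) in GF pigs and 21.8 ± 12.8% (SD, n = 3) in CG pigs (exact p = 0.4).

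**Figure D4:**
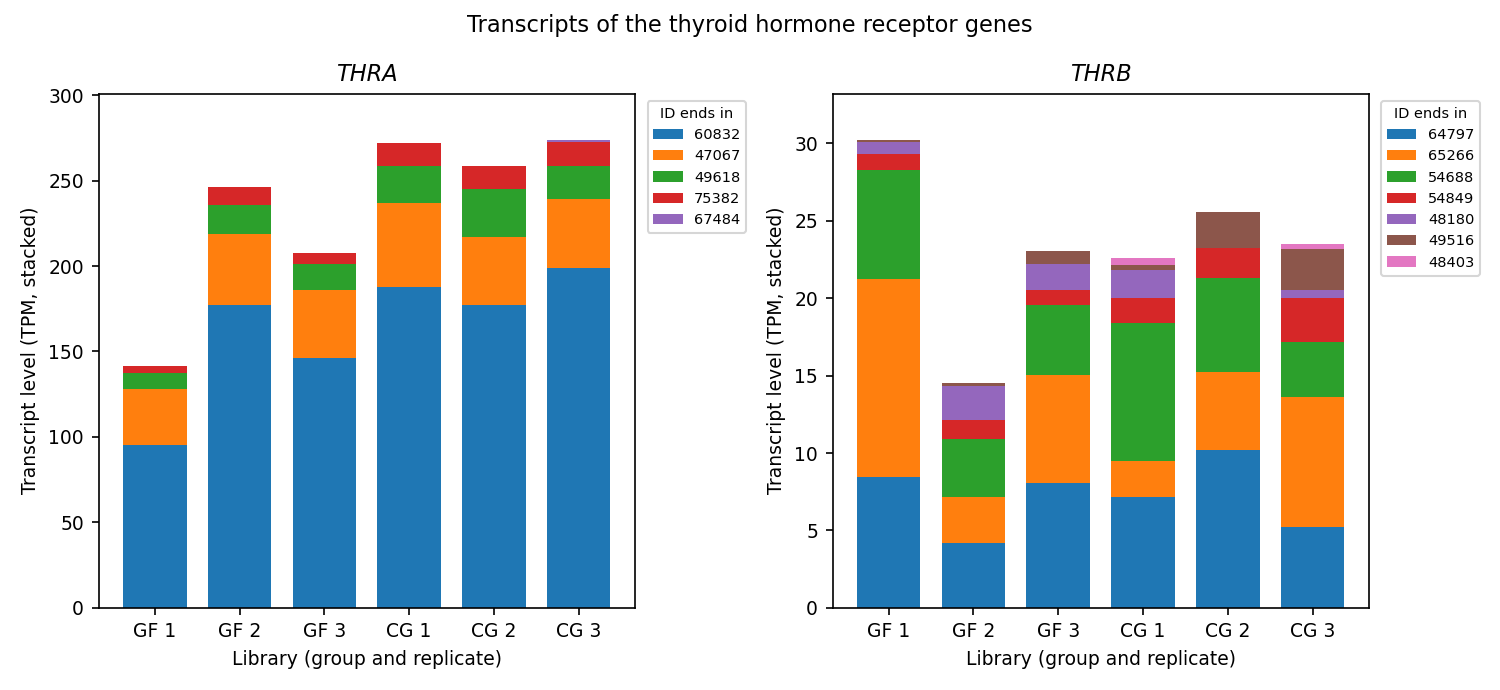
Stacked TPM of the annotated transcripts of THRA (left) and THRB (right) in each library, with a colour per transcript, named by the end of its ID. ENSSSCT00000060832, at the base of the bars, makes up most of THRA in all 6 libraries, and no single transcript of THRB does so.

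Ratios of a pair of genes were taken within each library, from TPM + 1. The log2 ratio of TSHR over TRHR was -0.79 ± 0.42 (SD, n = 3) in GF pigs and 0.24 ± 0.19 (SD, n = 3) in CG pigs, without overlap, a difference of -1.03 (two-sided exact permutation test, p = 0.1). Its size depended on the pseudocount, and with 0.1 it was -2.28. TSHR was thus below TRHR in each GF pig and above it in each CG pig, in CG pig 3 at 4.44 against 4.33 TPM. Both genes were low, with an unknown counting error. TSHR entered the test only through its level in CG pigs, so this ratio is description and no support of its own. DIO2 over DIO3, the activating over the inactivating enzyme, was 2.69 ± 0.85 and 2.13 ± 0.90, a difference of 0.57 (exact p = 0.4), which ranged from 0.08 without GF pig 1 over 0.15 without CG pig 2 to 1.04 without CG pig 3 and was 1.22 with a pseudocount of 0.1. THRA over THRB was 3.10 ± 0.90 and 3.44 ± 0.13, a difference of -0.33 (exact p = 0.7), which was 0.12 without GF pig 1. After adjustment over the 3 ratios, the p values were 0.3, 0.6 and 0.7.

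TPM are scaled for length, so levels can be set side by side between genes. In CG pigs the order of the means was THRA, CRYM, TRH, DIO2, THRB, TSHR, DIO3 and TRHR. THRA, CRYM and TRH overlapped in their ranges from 1 to the next, as did DIO2 with THRB, and TSHR with DIO3 and DIO3 with TRHR. In GF pigs the order was THRA, CRYM, TRH, THRB, DIO2, TRHR, DIO3 and TSHR. There THRA lay above CRYM without overlap and DIO2 above TRHR without overlap, and the other neighbours overlapped. TSHR was thus sixth in CG pigs and last in GF pigs.

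Other genes of the pathway were taken from 7 lists. In the 8 genes of TRH processing and breakdown, 2 fell and 0 rose, where 4.93% of all tested genes fell, and the 2 became 1 without a filter, with median-centred libraries or without GF pig 2, and 0 without any other library. QPCT, which forms the pyroglutamyl end of TRH, was at 8.17, 7.78 and 10 TPM in the GF pigs, against 19.1, 19.2 and 25.8 TPM in the CG pigs, a log2 fold change of -1.20 (limma, adjusted p = 0.0293). PAM, which forms its amide end, was at 129, 146 and 194 TPM in the GF pigs, against 251, 262 and 253 TPM in the CG pigs (log2 change -0.72, adjusted p = 0.04995). PCSK1, a prohormone convertase, had a log2 fold change of -1.65 and did not pass (adjusted p = 0.0804), nor did PGPEP1, a pyroglutamyl peptidase, at -0.25 on that scale.

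Of 10 tested regulators of TRH neurons 3 fell and 0 rose, where 4.93% of all tested genes fell, and the list median was -0.94. The count of falls was 1 without a filter and with median-centred libraries, and 0 without GF pig 1, GF pig 3 or any of the CG pigs. LEPR, the leptin receptor, was at 0.49, 1.13 and 1.32 TPM in the GF pigs, against 3.64, 4.51 and 5.92 TPM in the CG pigs (log2 change -1.53, limma, adjusted p = 0.0324). CREB3L1, a transcription factor of the CREB family, had a log2 fold change of -1.12, and ARNT2, the partner of SIM1 in the development of the paraventricular nucleus in mice, of -0.54 (adjusted p = 0.0469 for both). NPY1R, a receptor of neuropeptide Y, did not pass at a log2 fold change of -0.90 (adjusted p = 0.0522). The transcription factors SIM1 and OTP, on which TRH neurons depend in mice and which are named here after their values were seen, did not pass. SIM1 was at 0.05, 2.75 and 3.59 TPM in the GF pigs, against 7.16, 9.63 and 6.38 TPM in the CG pigs, and OTP at 0.18, 21.4 and 17.3 TPM in the former, against 33.8, 40.2 and 41.3 TPM in the latter. As with TRH, GF pig 1 was far below the other GF pigs for both.

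Of 7 tested genes of thyroid hormone transport 1 rose and 1 fell, where 1.08% of all tested genes rose and 4.93% fell. TTR, which carries T4 in the cerebrospinal fluid and is made by the choroid plexus, was at 132, 200 and 43.9 TPM in the GF pigs, against 8.68, 5.72 and 9.28 TPM in the CG pigs, a log2 fold change of 3.60 (limma, adjusted p = 0.0293). TTR is also among the 8 choroid plexus markers, of which 7 were tested and 2 rose, TTR and CLIC6, the latter tested only through its level in GF pigs, and KL was lower at an unadjusted p under 0.05. Without TTR the markers added up to 68.4 to 133 TPM in the GF pigs, against 75.5 to 123 TPM in the CG pigs, and the groups overlapped. The part of choroid plexus in the rise of TTR was not tested. SLC7A5, an amino acid transporter that also carries thyroid hormone, fell with a log2 fold change of -0.58 (adjusted p = 0.04995). SLCO1C1, the transporter OATP1C1, had one of -0.94 (adjusted p = 0.375) and did not pass.

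None of the other pathway lists held a gene that passed. Of 8 tested genes of deiodinase handling 0 did, 4 were lower at an unadjusted p under 0.05 (limma), and their median log2 fold change was -0.38. The 4 with the smallest p included USP20 at a log2 fold change of -0.61 (limma, adjusted p = 0.0593), a deubiquitinase that acts on DIO2, and WSB1, which marks DIO2 for breakdown, at -0.97 (adjusted p = 0.069). Of 15 tested receptor partners and cofactors 0 passed, with 7 lower and 1 higher at an unadjusted p under 0.05 and a median log2 fold change of -0.35. NCOR1, a corepressor, stood at a log2 fold change of -0.47 (adjusted p = 0.0551), and RXRG, a partner of the thyroid hormone receptors, at one of -0.85 (adjusted p = 0.0764). Among 10 tested genes that respond to thyroid hormone in brain 0 passed, 1 was higher at an unadjusted p under 0.05 and the median log2 fold change was 0.32. It was KLF9, a direct T3 target, which was at 72.8, 54.4 and 60.5 TPM in the GF pigs, against 30.4, 31.5 and 59 TPM in the CG pigs (log2 change 0.68, adjusted p = 0.133). The 14 genes of TRH and TSH receptor signalling had a median log2 fold change of -0.05, and 3 were lower and 1 higher at an unadjusted p under 0.05. The latter was PLCB1, a phospholipase C, at a log2 fold change of 0.98 (adjusted p = 0.145). Over all 7 pathway lists, 6 genes fell and 1 rose, where 4.93% of all tested genes fell and 1.08% rose. Of those 7, PAM and SLC7A5 passed in none of the 6 fits that left out 1 library, QPCT, LEPR, CREB3L1 and ARNT2 in 1 and TTR in 2.

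**Figure D5:**
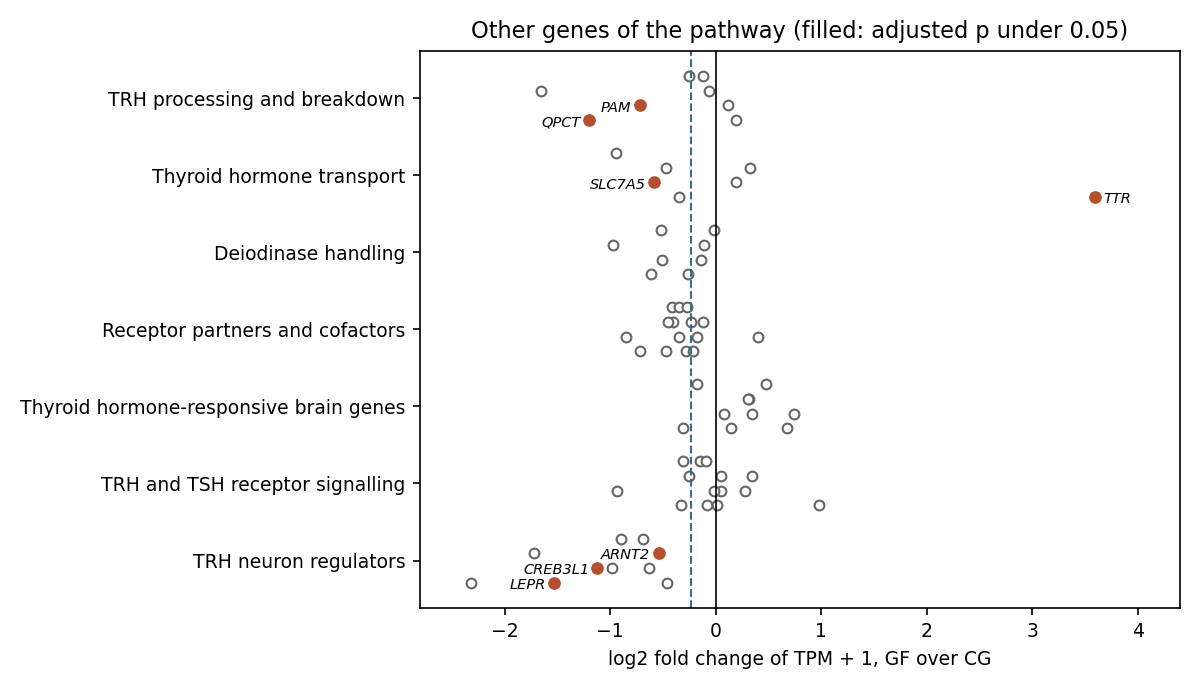
Log2 fold change (GF minus CG, log2(TPM + 1)) of the tested genes of each pathway list, 1 point per gene, filled where the adjusted p is under 0.05. TTR at 3.60 is the 1 filled point above 0, and QPCT, PAM, SLC7A5, LEPR, CREB3L1 and ARNT2 are filled below it.

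The genes whose pattern over the 6 libraries was nearest to each of the 8 were found by the root mean square difference of the centred log2(TPM + 1) values, among 12719 genes, as a description. Nearest to TRH were BAIAP3 (a difference of 0.095 on the log2 scale), GPR101 (0.168) and NPTX1 (0.171). BAIAP3 was at 9.18, 67.8 and 53.6 TPM in the GF pigs, against 119, 142 and 125 TPM in the CG pigs. Nearest to TSHR were ISL1 (0.146), a hypothalamic transcription factor, MEST (0.149) and RADX (0.177). Nearest to DIO2 were SLC16A11 (0.149), COL23A1 (0.187) and CD83 (0.197), each with its highest level in CG pig 3, as for DIO2. Nearest to CRYM were RPE65 (0.289), ELAPOR1 (0.375) and TBX3 (0.383), at larger differences. For TRHR they were PTBP3, SFT2D2 and ST14, for DIO3 IL17RD, RBM47 and SLC5A3, for THRA ECE1, ZKSCAN4 and LRP10, and for THRB TBC1D9, SLC12A5 and ARF5.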

How the data were processed

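The values used are TPM of annotated mRNA transcripts as deposited by the authors, for 47559 transcripts of 19256 genes in 3 GF and 3 CG long RNA libraries. The study's methods name TopHat, Cufflinks and HTSeq on Sscrofa11.1, and the submitters' processing notes name fastp, HISAT and RSEM. TPM keep no sequencing depth, so no counting error is given. The mRNA TPM added up to 793723 to 845526 per library.

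TPM were added up per gene, and log2(TPM + 1) was compared by limma-trend (limma 3.58.1, R 4.3.3) for genes with at least 1 TPM in at least 3 of the 6 libraries, adjusted by Benjamini-Hochberg. The edgeR test of the study was not run, since TPM are not counts. Calls asked for an adjusted p under 0.05 together with a log2 fold change of 1 or more in size, the thresholds of the study. Tables and figures used Python 3.11.15, pandas 2.3.3, numpy 2.4.6, scipy 1.17.1 and matplotlib 3.10.9. The fit was also run on simulated data, drawn independently for each gene and without outlying libraries. That run thus says nothing about libraries such as GF pig 1 and CG pig 3.

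Symbols missing from the data were filled from a gene name table for 654 of 4794 genes, and coordinates are those of the RefSeq table for Sscrofa11.1. The genes and lists were chosen with earlier results of these data known. Named are all 8 genes, up to 4 genes with the smallest p per pathway list and the 3 nearest patterns per gene. SIM1, OTP, KDM5D and single marker genes were named after their values were seen. Alternatives were a pseudocount of 0.1, no filter, a filter of 5 TPM, the replicate number as a block, mitochondrial genes out of the scaling, median-centred libraries, array weights, transcripts in place of genes and leaving out libraries. The lncRNA and miRNA values were not used here. A planned search for motifs in promoters was not run. A gene that the naming rule covers is not reported here.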

Additional observations from a re-analysis of the deposited data

How the results depend on the processing

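Of the 8 genes, 1 was called lower (TSHR), and under the alternatives 0 to 2 were. None was called lower with a filter of 5 TPM, with the replicate block or without GF pig 1 and CG pig 3, 2 were with array weights and 2 at the level of transcripts, and leaving out 1 library gave 0 to 1. TSHR stayed under 5 TPM in every library, so the filter of 5 TPM left it untested. The fold change of TSHR was -1.96 with the replicate block (adjusted p = 0.0512), -1.71 without GF pig 1 and CG pig 3, and -2.11 to -1.79 when 1 library was left out. With array weights TRH passed at -1.55 (adjusted p = 0.0461). DIO2 turned to 0.27 without CG pig 3 and to 0.03 without GF pig 1 and CG pig 3, and ranged from -1.15 to 0.27 when 1 library was left out. THRB turned to 0.11 with median-centred libraries and to 0.14 without GF pig 2, and ranged from -0.38 (without GF pig 1 and CG pig 3) to 0.14. The log2 ratio of THRA over THRB was 0.12 without GF pig 1 and ranged from -0.78 to 0.12. Called member transcripts, 2 in all, were 0 with a filter of 5 TPM, which left both untested, and 0 without GF pig 1 and CG pig 3. The count of genes with every GF library below every CG library was 5 of 8 in place of 6 with mitochondrial genes out of the scaling or median-centred libraries, where THRA overlapped. No share of all tested genes is given for these 2 scalings.

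In the pathway lists, 6 genes fell and 1 rose, where 4.93% of all tested genes fell and 1.08% rose. Those shares belong to the main fit, and none is given for the alternatives. Counts under the alternatives, here and above, thus cannot be set against a share and are description only. The falls were 2 without a filter, 3 with a filter of 5 TPM, 0 with the replicate block, 2 with mitochondrial genes out of the scaling, 2 with median-centred libraries, 19 with array weights, 0 without GF pig 1 and CG pig 3, and 0 to 6 when 1 library was left out. LEPR was left untested by the filter of 5 TPM. The rises were 0 with the block, 4 with array weights, 0 without GF pig 1 and CG pig 3, and 0 to 4 when 1 library was left out. The cause of these changes was not tested. The replicate numbers do not pair the pigs: correlations of deviations from the group means were -0.0244, 0.0581 and -0.01 for the same number. With 3 libraries per group and no read depth, low levels such as those of TSHR, TRHR and DIO3 carry an unknown counting error.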
